A study of Mus musculus with 8 samples.

Results

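The 8 genes described here, Irf1, Irf2, Irf3, Irf4, Irf5, Irf7, Irf8 and Irf9, encode interferon regulatory factors (IRFs). They were chosen by name and are 8 of the 23471 entries of each deposited table, and all 8 were found in both tables. RNA was sequenced from germinal centre (GC) B cells, the follicular B cells in which antibody genes undergo mutation and selection, of C57BL/6 mice. The mice had received NP-KLH, the hapten NP on the carrier protein KLH, 13 days earlier. Cells high for FAS and GL7 were sorted from B220-positive cells. The Irf8 cKO group (n = 2) carried CD19cre/+ with Irf8flox/flox, and the Ctrl group (n = 2) carried CD19cre/+ with Irf8+/+, so that the Cre allele was common to all 4 libraries. This Cre acts in the B lineage, and other cells of these mice keep Irf8. Each of 2 experiments gave 1 library of either group. Nothing in the labels says how many animals stand behind a library, so the p-values rest only on differences between these libraries, which may be technical. The series' 4 samples of B cells cultured with lipopolysaccharide were not analysed here.

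IRFs share an N-terminal DNA-binding domain with conserved tryptophans that contacts GAAA-type sequences in interferon-stimulated response elements. IRF3, IRF5 and IRF7 are activated by kinases below nucleic acid sensors and Toll-like receptors, and IRF9 joins STAT proteins in the complex formed after type I interferon signalling. IRF4 and IRF8 are the members characteristic of lymphoid and myeloid cells. They bind composite elements together with ETS factors such as PU.1 and SPIB, and in B cells IRF4 is known to promote plasma cell formation and class switching while IRF8 is known as a factor of the GC programme.

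The deposited values are RPKM, read counts divided by transcript length and by the mapped reads of the library, so that levels of genes of different length can be set side by side. Read totals were not stated. The spacing of low values gave estimates of 76000000 and 64000000 reads for the libraries labelled Irf8 cKO of experiments 1 and 2, against 73200000 and 63100000 reads for Ctrl. The library labelled Irf8 cKO of experiment 2 stood apart, with 4845 genes at 1 RPKM or more, where the other libraries had 6171 to 6566. Its ribosomal RNA precursor transcript Rn45s measured 16716 RPKM, against 5887 to 9085 RPKM in the others. Over the 6446 genes tested, the median log2 ratio of Irf8 cKO over Ctrl on the log2(RPKM + 1) scale was -0.35, with -0.18 in experiment 1 and -0.51 in experiment 2. Ratios are therefore given a second time with each library divided by its median-of-ratios size factor (scaled values), where this median was 0.0035.

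Irf8 was the most abundant member in every library, and the libraries labelled Irf8 cKO did not hold less of it as a group. Irf8 measured 20.6 and 11.6 RPKM in the libraries labelled Irf8 cKO of experiments 1 and 2, against 14.5 and 14.9 RPKM in Ctrl. The Irf8 cKO values lay on either side of the Ctrl values, so the groups overlapped, and the means were 16.1 ± 6.37 RPKM in Irf8 cKO and 14.7 ± 0.288 RPKM in Ctrl (SD, n = 2 each). In sorted bulk cells, fewer cells of a kind and less RNA per cell cannot be told apart. About 4468 and 2121 reads stood behind the values labelled Irf8 cKO, against about 3018 and 2675 reads for Ctrl. Exact Poisson 95% intervals on such counts reach no more than 4.35% to either side, and they cover counting error only. In limma the log2 ratio as deposited was 0.077 with an SE of 0.35, and its Benjamini-Hochberg adjusted p was 0.880. For values as deposited, the SE and p of a gene come from genes of similar level. The spread between the Irf8 values themselves has no weight in them. The scaled values, 19.3 and 17.7 in the libraries labelled Irf8 cKO against 11.3 and 13.1 in Ctrl, did not overlap, and their log2 ratio was 0.56 with an SE of 0.18 (limma, adjusted p = 0.400). Leaving out Irf8 cKO of experiment 1, in a fit without the experiment as a term, turned the deposited ratio to -0.31.

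By rank, which does not depend on the scaling of a library, Irf8 was the 228th and 233rd most abundant of 23469 genes in the libraries labelled Irf8 cKO, against the 525th and 364th in Ctrl. Its rank was thus nearer the top in both libraries labelled Irf8 cKO than in either Ctrl library. The same held for Irf4, at 1952 and 1242 in the libraries labelled Irf8 cKO, against 2158 and 2499 in Ctrl. The ranks of Irf1 and Irf7 lay further from the top in both libraries labelled Irf8 cKO. How many of all genes moved in either way was not counted, so the ranks do not set these members apart. By scaled values, another measure, 15.7% of tested genes lay higher and 15.4% lower in both libraries labelled Irf8 cKO. In experiment 1 the ratio of Irf8 was exceeded by 77 of the 6446 tested genes (1.19%), and in experiment 2 by 1761 of them (27.3%). After scaling, the ratio over both experiments was exceeded by 82 tested genes (1.27%). The authors' deposited table gave Irf8 a log2 ratio of 0.72 (unadjusted p = 0.0237) in experiment 1 and 0.37 (p = 0.278) in experiment 2. A p under 0.05 was given in the authors' deposited table to 4.65% of the tested genes in experiment 1 and to 3.61% in experiment 2.

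The deposited Irf8 value covers a whole transcript, NM_008320 (mm10, chromosome 8, 120736376 to 120756692, plus strand). Matched by accession to GENCODE on GRCm38, the assembly of mm10, this transcript has 9 exons and 2847 bases. Its last exon holds 1696 bases, or 59.6% of the transcript, and each of the other 8 exons holds between 1.69% and 13.4%. The labels do not name the exons between the loxP sites. A value summed over all exons does not separate deleted from intact sequence, so it does not check the genotype labels. The groups are therefore named here as labelled.

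Upstream sequence is shown for the 3 members whose promoters held a searched motif. RefSeq promoter windows of GRCm38.p6 were matched by symbol for all 8 genes and comprised 11 windows of 300 bases, from 250 before to 50 after a start site. They were searched on both strands for the ETS-IRF composite element (GGAA and GAAA with any 2 bases between them), the interferon-stimulated response element core (GAAA and GAAA with any 2 bases between them) and the interferon-gamma-activated element TTCNNNGAA, known as GAS, whose letters are the same on both strands. The 250 bases before the start site are given, 5′ to 3′, with matches in capitals.
Irf8, chr8:120736108-120736357, plus strand: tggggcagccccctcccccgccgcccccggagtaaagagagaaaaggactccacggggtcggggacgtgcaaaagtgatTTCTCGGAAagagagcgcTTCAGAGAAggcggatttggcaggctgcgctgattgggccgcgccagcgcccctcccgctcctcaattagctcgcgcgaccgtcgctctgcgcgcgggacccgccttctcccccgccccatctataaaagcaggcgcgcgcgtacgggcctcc
Irf1, chr11:53769764-53770013, plus strand: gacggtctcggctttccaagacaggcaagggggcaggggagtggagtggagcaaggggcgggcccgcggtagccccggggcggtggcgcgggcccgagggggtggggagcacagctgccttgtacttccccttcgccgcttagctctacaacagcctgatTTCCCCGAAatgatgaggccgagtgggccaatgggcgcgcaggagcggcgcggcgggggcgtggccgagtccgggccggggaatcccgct
Irf2, chr8:46739495-46739744, plus strand: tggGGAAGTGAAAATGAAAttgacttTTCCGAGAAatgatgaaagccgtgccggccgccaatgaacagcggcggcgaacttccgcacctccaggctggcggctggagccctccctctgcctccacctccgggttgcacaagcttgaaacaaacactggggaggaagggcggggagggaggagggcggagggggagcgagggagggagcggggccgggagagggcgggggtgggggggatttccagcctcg
The Irf8 window shown held 2 GAS matches, TTCTCGGAA and TTCAGAGAA, and lies 18 bases from the start given in the deposited tables. Another Irf8 window, 2263 bases from that start, held no match. Irf1 held 1 GAS match, TTCCCCGAA, in a window whose start site lies 459 bases before the deposited one. The other Irf1 window, at the deposited start itself, held no match. Irf2 held 1 GAS match, TTCCGAGAA, beside a composite element match, GGAAGTGAAA, whose last 4 bases open the response element match GAAAATGAAA. Of the 11 member windows, 3 held a GAS match, 1 a composite element match and 1 a response element match. Across all 32851 RefSeq promoter windows, a GAS match was present in 8.30%, a composite element match in 2.72% and a response element match in 3.44%. A match describes letters, not binding.

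Irf4, the IRF that drives plasma cell formation (chromosome 13, 30749258 to 30766927), measured 4.11 and 3.64 RPKM in the libraries labelled Irf8 cKO, against 4.51 and 3.47 RPKM in Ctrl, with overlapping groups. Its log2 ratio was -0.028 ± 0.30 (SE; limma, adjusted p = 0.950) as deposited and 0.39 ± 0.18 (adjusted p = 0.505) after scaling. The scaled Irf4 values were 3.85 and 5.53 in the libraries labelled Irf8 cKO, against 3.53 and 3.05 in Ctrl, and did not overlap. The sign thus depended on the scaling, and the test was passed on neither scale. The authors' deposited table gave Irf4 a log2 ratio of 0.070 (unadjusted p = 0.838) in experiment 1 and 0.79 (p = 0.0370) in experiment 2.

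**Figure D1:**
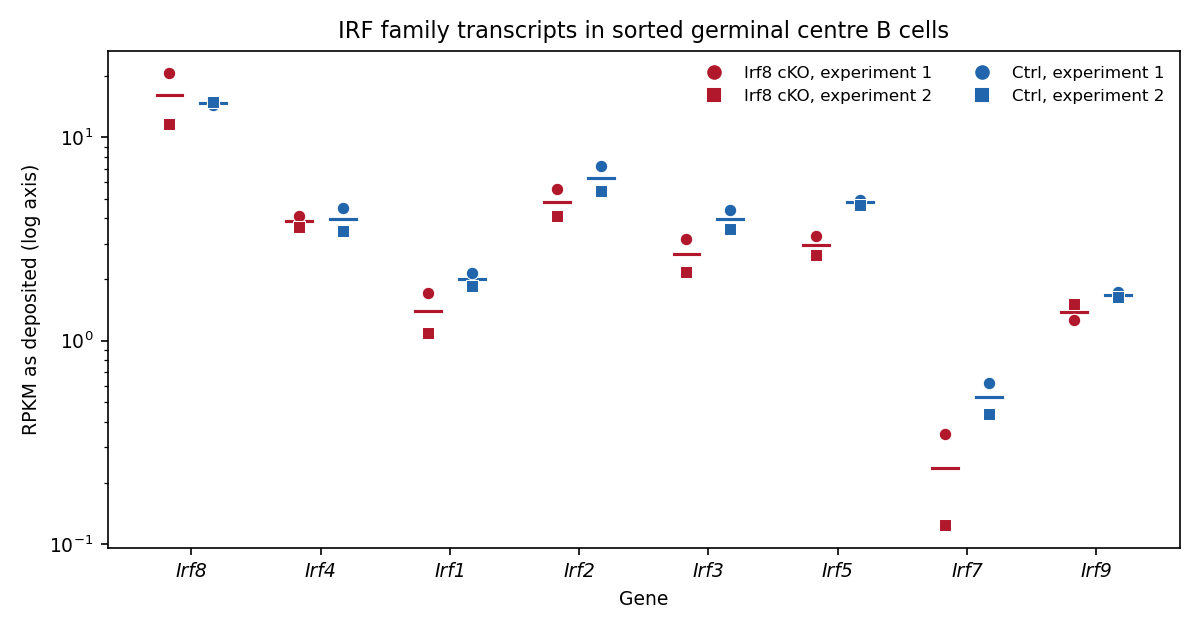
RPKM of the 8 IRF genes as deposited (log axis), with the libraries labelled Irf8 cKO left of Ctrl for each gene, circles for experiment 1, squares for experiment 2 and a bar at the mean of the 2 libraries. Irf8 lies highest, between 11.6 and 20.6 RPKM in all 4 libraries, and Irf7 lowest, between 0.124 and 0.619 RPKM.

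The members whose proteins are activated below pattern receptors, Irf3, Irf5 and Irf7, were each lower in both libraries labelled Irf8 cKO than in either Ctrl library as deposited, as were Irf1, Irf9 and 44.7% of all tested genes. Irf5, a factor of Toll-like receptor responses (chromosome 6, 29529282 to 29537320), measured 3.28 and 2.63 RPKM in the libraries labelled Irf8 cKO, against 4.94 and 4.67 RPKM in Ctrl. The group means were 2.96 ± 0.460 in Irf8 cKO and 4.81 ± 0.193 RPKM in Ctrl (SD, n = 2 each). Its log2 ratio of -0.56 ± 0.30 was the lowest of the tested members (SE; limma, adjusted p = 0.281), and it was -0.14 ± 0.15 (adjusted p = 0.778) after scaling. The scaled Irf5 values of the groups overlapped.

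Irf3, the factor that turns on interferon-beta after viral sensing (chromosome 7, 44997648 to 45002848), measured 3.17 and 2.17 RPKM in the libraries labelled Irf8 cKO, against 4.37 and 3.56 RPKM in Ctrl. Its log2 ratio was -0.44 ± 0.30 (SE; limma, adjusted p = 0.339), and -0.050 (adjusted p = 0.928) with scaled values, which overlapped. Irf7, which amplifies interferon-alpha production (chromosome 7, 141263183 to 141266424), was the lowest member, at 0.349 and 0.124 RPKM in the libraries labelled Irf8 cKO, against 0.619 and 0.435 RPKM in Ctrl. It did not reach the filter, 1 RPKM in at least 2 libraries, and was not tested.

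About 52 and 16 reads stood behind Irf7 in the libraries labelled Irf8 cKO, against about 89 and 54 in Ctrl. For the 16 reads of experiment 2 the Poisson 95% interval runs from -42.8% to 62.4% around the value. Irf7 was the only one of the 8 genes that stayed lower in both libraries labelled Irf8 cKO after scaling, at 0.327 and 0.188, against 0.485 and 0.383 in Ctrl. Among the tested genes, which do not include Irf7, 15.4% lay lower in this way. The authors' deposited table gave Irf7 log2 ratios of -0.68 (unadjusted p = 0.434) and -1.18 (p = 0.442) in experiments 1 and 2. With no filter on low values, limma put Irf7 at -0.31 on the log2(RPKM + 1) scale, a scale that understates changes of low genes, with an adjusted p of 0.405.

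Irf1 and Irf2 encode the activator and the mostly repressive factor that were the first IRFs to be described, and both bind the interferon-beta promoter. Irf1 (chromosome 11, 53770473 to 53778374) measured 1.71 and 1.09 RPKM in the libraries labelled Irf8 cKO, against 2.15 and 1.85 RPKM in Ctrl. The groups did not overlap as deposited, and they did after scaling. The log2 ratio of Irf1 was -0.33 ± 0.26 (SE; limma, adjusted p = 0.401) and -0.014 (adjusted p = 0.981) after scaling.

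Irf2, the second most abundant member in every library (chromosome 8, 46739745 to 46847458), measured 5.58 and 4.09 RPKM in the libraries labelled Irf8 cKO, against 7.27 and 5.42 RPKM in Ctrl, with overlapping groups. Its log2 ratio was -0.33 ± 0.32 (SE; limma, adjusted p = 0.483), and 0.11 (adjusted p = 0.854) after scaling. Irf9, the DNA-binding partner of STAT proteins in that complex (chromosome 14, 55604579 to 55610030), measured 1.26 and 1.52 RPKM in the libraries labelled Irf8 cKO, against 1.73 and 1.64 RPKM in Ctrl. Both Irf8 cKO values lay below both Ctrl values as deposited, and the groups overlapped after scaling. The log2 ratio of Irf9 was -0.17 ± 0.25 (SE; limma, adjusted p = 0.638), and 0.16 (adjusted p = 0.783) after scaling.

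Of the 8 members, 7 passed the filter and 0 of these passed the limma test (Benjamini-Hochberg threshold 0.05), either as deposited or scaled. Of all 6446 tested genes 1.18% passed as deposited, 1.09% lower and 0.0931% higher, and 0.0621% passed when scaled, 0.0465% lower and 0.0155% higher. At an unadjusted p under 0.05 there were 0 of the 7 members as deposited, where 18.8% of all tested genes lay, and 1 of 7, Irf8, after scaling (unadjusted p = 0.0152), where 10.5% of all tested genes lay. As deposited, 4 of the 7 tested members lay lower in both libraries labelled Irf8 cKO than in both Ctrl libraries, namely Irf1, Irf3, Irf5 and Irf9. Among all tested genes that share was 44.7%. After scaling none of the 7 did, where 15.4% of tested genes did, and 2 members, Irf8 and Irf4, lay higher in both libraries labelled Irf8 cKO, where 15.7% of tested genes did. The median log2 ratio of the 7 tested members was -0.33 as deposited, beside -0.35 for all tested genes, and 0.11 after scaling, beside 0.0035.

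**Figure D2:**
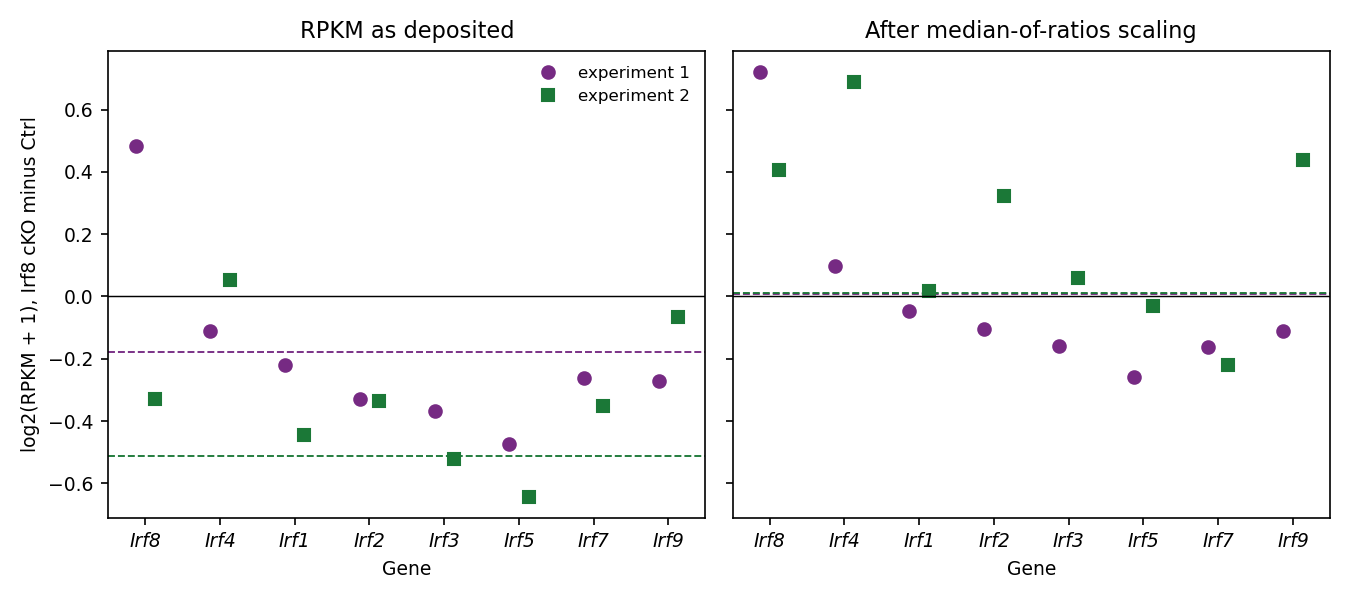
Difference of log2(RPKM + 1), Irf8 cKO minus Ctrl, for each of the 8 genes in experiment 1 (circles) and experiment 2 (squares), as deposited on the left and after scaling on the right, with dashed lines at the median of all 6446 tested genes in each experiment. After scaling Irf8 lies above 0 in both experiments, at 0.72 and 0.41, as does Irf4, at 0.097 and 0.69, while Irf5 and Irf7 lie below 0 in both.

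By level, the members kept a similar order over the libraries. In all 4 libraries Irf8 came first, Irf2 second and Irf7 last. In Ctrl, Irf5 followed Irf2, and its values did not overlap those of Irf4 (4.51 and 3.47 RPKM) or Irf3 (4.37 and 3.56 RPKM). The levels of Irf4 and Irf3 did overlap each other in Ctrl. Among the libraries labelled Irf8 cKO, Irf4 followed Irf2 instead. Its values there overlapped those of Irf2 and lay above those of Irf5 and Irf3, which overlapped each other. The level of Irf4 over that of Irf5 in the same library was 1.25 and 1.38 in the libraries labelled Irf8 cKO, against 0.912 and 0.742 in Ctrl. Irf1 and Irf9 were next to last, at 1.09 to 1.71 and 1.26 to 1.52 RPKM in the libraries labelled Irf8 cKO, where they overlapped, and at 1.85 to 2.15 and 1.64 to 1.73 RPKM in Ctrl, where they did not.

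A ratio of 2 genes within a library does not change with the scaling of that library. The level of Irf8 over that of Irf5 was 6.29 and 4.42 in the libraries labelled Irf8 cKO, against 2.93 and 3.19 in Ctrl. For Irf8 over Irf3 it was 6.52 and 5.35 in the libraries labelled Irf8 cKO, against 3.31 and 4.18 in Ctrl. For Irf8 over Irf1 it was 12.1 and 10.6 in the libraries labelled Irf8 cKO, against 6.74 and 8.05 in Ctrl. In all of these the groups did not overlap, and the same held for Irf8 over Irf2, at 3.70 and 2.85 in the libraries labelled Irf8 cKO, against 1.99 and 2.75 in Ctrl, and over the scarce Irf7, at 59.2 and 94.1 in the libraries labelled Irf8 cKO, against 23.4 and 34.2 in Ctrl. Each of these 5 ratios gave an exact two-sided permutation p of 0.333, the smallest that 2 libraries against 2 can give. Across all tested genes, 70.7% showed a ratio of Irf8 to the gene that was higher in both libraries labelled Irf8 cKO. The 5 ratios share the Irf8 value and are not independent.

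The Irf8 to Irf4 ratio, the pair named in the title of the study, did not separate the groups. It was 5.03 and 3.20 in the libraries labelled Irf8 cKO, against 3.21 and 4.30 in Ctrl (exact two-sided permutation p = 1.0, n = 2 each), a log2 difference of 0.11 that was 0.65 in experiment 1 and -0.42 in experiment 2. Irf8 over Irf9 overlapped as well, at 16.4 and 7.65 in the libraries labelled Irf8 cKO, against 8.38 and 9.08 in Ctrl. Irf8 made up 51.5% and 43.3% of the summed RPKM of the 8 genes in the libraries labelled Irf8 cKO, against 36.1% and 41.4% in Ctrl. Of the 21 pairs of tested members, 11 had ratios that did not overlap between the groups, in either direction, where 32.2% of all pairs of tested genes did. These pairs share genes.

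**Figure D3:**
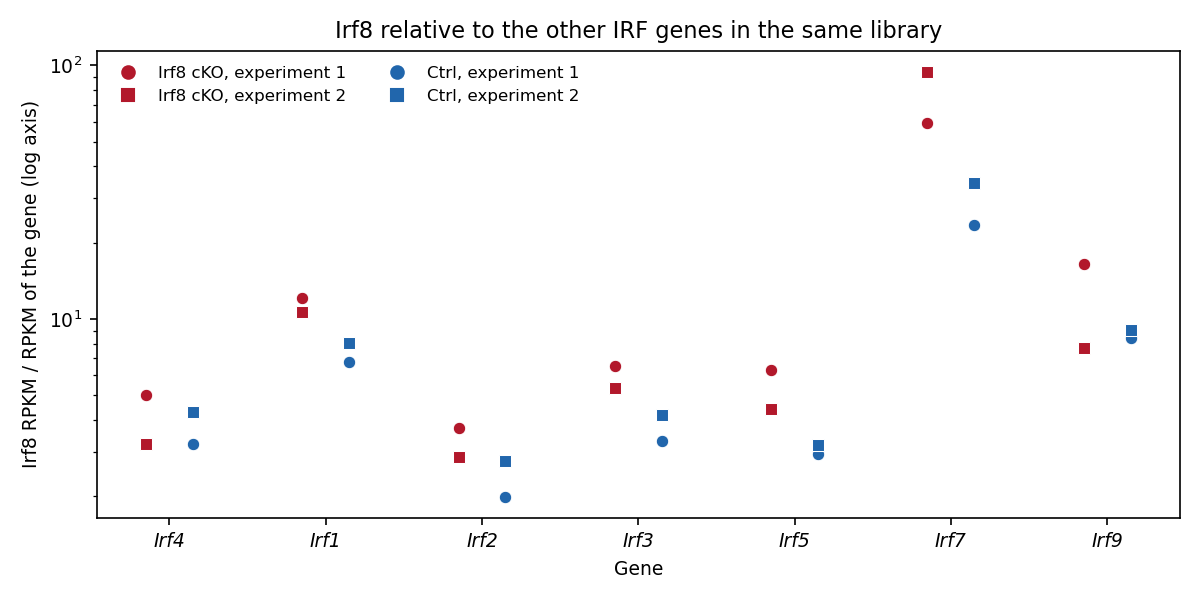
RPKM of Irf8 divided by the RPKM of each other IRF gene in the same library (log axis), with the libraries labelled Irf8 cKO left of Ctrl, circles for experiment 1 and squares for experiment 2. The groups are apart for Irf1, Irf2, Irf3, Irf5 and Irf7, and they overlap for Irf4, from 3.20 to 5.03 in all 4 libraries, and for Irf9.

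Interferon-gamma, through its receptor, is the textbook inducer of Irf1 and Irf8. The ligand genes Ifng, Ifnb1, Ifna2 and Ifna4 were listed at 0 in all 4 libraries. Of 12 genes of interferon receptors and JAK-STAT signalling, 8 were tested and 0 passed as deposited or after scaling (limma). At an unadjusted p under 0.05 there were 3 as deposited and 2 after scaling, beside 18.8% and 10.5% of all tested genes. Ifngr1, which encodes the ligand-binding chain of the interferon-gamma receptor, measured 2.80 and 2.06 RPKM in the libraries labelled Irf8 cKO, against 5.83 and 5.89 RPKM in Ctrl. Both Irf8 cKO values of Ifngr1 lay below both Ctrl values as deposited, as they did for 44.7% of all tested genes. Its log2 ratio in limma was -1.01 (adjusted p = 0.0611), and -0.60 with scaled values (adjusted p = 0.299).

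The signalling kinase gene Jak1 measured 13.4 and 7.22 RPKM in the libraries labelled Irf8 cKO, against 15.0 and 14.9 RPKM in Ctrl (log2 ratio -0.55, and -0.075 after scaling). Ifnar2, a chain of the type I interferon receptor singled out after its values were seen, ran the other way. It measured 1.28 and 1.26 RPKM in the libraries labelled Irf8 cKO, against 0.645 and 0.367 RPKM in Ctrl, with a log2 ratio of 0.60 (adjusted p = 0.141), and 0.84 (adjusted p = 0.233) after scaling. The median of the 8 tested genes was -0.25 as deposited and 0.059 after scaling.

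Of 20 genes of sensors, adaptors and kinases upstream of IRF3, IRF5 and IRF7, 14 were tested and 0 passed as deposited or after scaling (limma). At an unadjusted p under 0.05 there were 3 as deposited and 1 after scaling, beside 18.8% and 10.5% of all tested genes. Tlr9, the endosomal receptor for CpG DNA, measured 4.03 and 3.12 RPKM in the libraries labelled Irf8 cKO, against 8.09 and 6.25 RPKM in Ctrl. Both of its Irf8 cKO values thus lay below both Ctrl values as deposited, as they did for 44.7% of all tested genes. In limma its log2 ratio was -0.84 (adjusted p = 0.173), and -0.40 with scaled values (adjusted p = 0.476). Slc15a4, a lysosomal transporter needed for endosomal Toll-like receptor signalling to IRF5 and IRF7, measured 2.89 and 1.24 RPKM in the libraries labelled Irf8 cKO, against 3.76 and 3.49 RPKM in Ctrl (log2 ratio -0.65, and -0.29 after scaling). Tbk1, the kinase of IRF3, measured 3.03 and 2.53 RPKM in the libraries labelled Irf8 cKO, against 3.43 and 3.81 RPKM in Ctrl (log2 ratio -0.29, and 0.11 after scaling). The median of the list was -0.33 as deposited and 0.0098 after scaling, close to that of all tested genes.

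Of 17 genes of IRF partners and cofactors, 12 were tested and 0 passed as deposited or after scaling (limma). At an unadjusted p under 0.05 there were 4 as deposited and 0 after scaling, beside 18.8% and 10.5% of all tested genes. Ikzf3, which encodes the Ikaros family factor Aiolos, measured 36.1 and 25.1 RPKM in the libraries labelled Irf8 cKO, against 52.1 and 52.8 RPKM in Ctrl. Ikzf1, the gene of Ikaros, measured 32.1 and 16.1 RPKM in the libraries labelled Irf8 cKO, against 41.6 and 37.2 RPKM in Ctrl. Both were lower in each experiment, with log2 ratios of -0.78 and -0.76 as deposited (limma, adjusted p = 0.232 and 0.239). After scaling these were -0.27 and -0.26 (limma, adjusted p = 0.680 and 0.690). As deposited, both Irf8 cKO values of each gene lay below both Ctrl values, as they did for 44.7% of all tested genes. Spib, the ETS partner gene, measured 33.0 and 23.0 RPKM in the libraries labelled Irf8 cKO, against 49.0 and 36.2 RPKM in Ctrl (log2 ratio -0.60, and -0.088 after scaling). The median of the list was -0.44 as deposited and -0.060 after scaling.

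Of 6 genes whose products are known to regulate IRF proteins, 5 were tested and 0 passed as deposited or after scaling (limma). At an unadjusted p under 0.05 there were 0 as deposited and 0 after scaling, beside 18.8% and 10.5% of all tested genes. Swap70, a relative of the IRF4 inhibitor Def6, measured 19.4 and 12.9 RPKM in the libraries labelled Irf8 cKO, against 20.7 and 26.3 RPKM in Ctrl. Rock2, the kinase of IRF4, and Fkbp4, an immunophilin that binds IRF4, had log2 ratios of -0.48 and -0.51 as deposited and of -0.039 and -0.058 after scaling. The list median was -0.48 as deposited and -0.034 after scaling.

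Of 29 interferon-response genes, 10 were tested, and the other 19, among them Mx1, Ifit1, Isg15, Rsad2 and Usp18, were at most 0.824 RPKM in any library. Psmb8, a catalytic subunit of the immunoproteasome, was the 1 gene of these 10 to pass, lower in the libraries labelled Irf8 cKO at 9.76 and 5.90 RPKM, against 24.1 and 18.0 RPKM in Ctrl (log2 ratio -1.34, limma adjusted p = 0.0175). Of all tested genes 1.18% passed as deposited. At an unadjusted p under 0.05 there were 3 of the 10 as deposited, beside 18.8% of all tested genes. After scaling the log2 ratio of Psmb8 was -0.86 (limma, adjusted p = 0.218), and 0 of the 10 passed. There were 3 at an unadjusted p under 0.05 after scaling, beside 10.5% of all tested genes. The Psmb8 call was also lost without the experiment as a term. The fits that leave out 1 library, which lack that term too, called Psmb8 only without Irf8 cKO of experiment 1. Psmb9, another such subunit, measured 17.5 and 15.0 RPKM in the libraries labelled Irf8 cKO, against 39.4 and 21.2 RPKM in Ctrl (log2 ratio -0.80, adjusted p = 0.232, and -0.30 after scaling). Trim25, a ubiquitin ligase of the RIG-I pathway, measured 5.99 and 3.99 RPKM in the libraries labelled Irf8 cKO, against 5.70 and 3.82 RPKM in Ctrl (log2 ratio 0.055, and 0.48 after scaling). The list median was -0.35 as deposited and 0.0021 after scaling.

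Of 6 B cell genes described as bound by IRF8 or IRF4, 5 were tested and 0 passed as deposited or after scaling (limma). At an unadjusted p under 0.05 there were 0 as deposited and 1 after scaling, beside 18.8% and 10.5% of all tested genes. Bcl6, the GC repressor gene, measured 30.5 and 23.4 RPKM in the libraries labelled Irf8 cKO, against 38.7 and 37.7 RPKM in Ctrl (log2 ratio -0.50, and 0.0080 after scaling). Ebf1, an early B lineage factor, measured 13.4 and 13.1 RPKM in the libraries labelled Irf8 cKO, against 11.3 and 15.3 RPKM in Ctrl (log2 ratio 0.013, and 0.50 after scaling). The list median was -0.50 as deposited and 0.0080 after scaling.

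**Figure D4:**
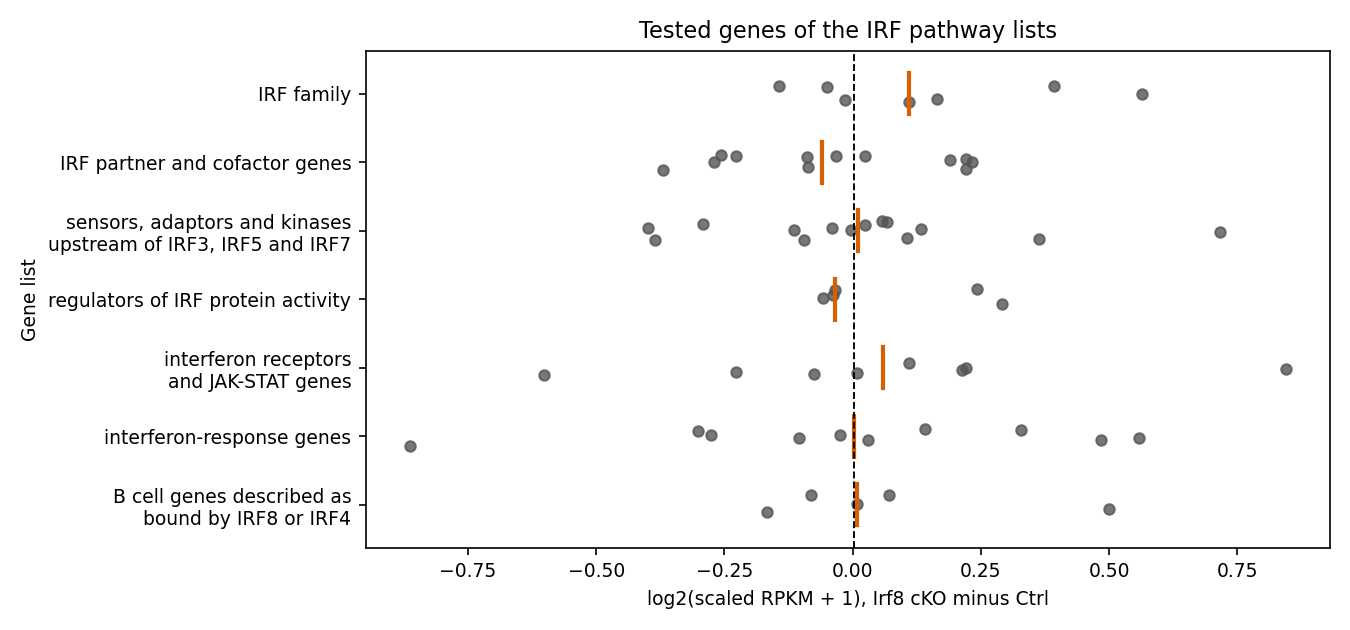
Difference of log2(scaled RPKM + 1), Irf8 cKO minus Ctrl, for each tested gene (points) of the IRF family and 6 pathway lists, with an orange bar at the median of each list and a dashed line at the median of all tested genes. The list medians lie between -0.060 and 0.11, and the outermost points are Psmb8, at -0.86, and Ifnar2, at 0.84.

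Genes whose profile over the 4 libraries lay nearest to that of Irf8, by root mean square distance of log2(RPKM + 1) centred on each gene's mean, were Eif4ebp3 (distance 0.027) and 1190002N15Rik (0.037). Eif4ebp3, which encodes a translation initiation factor binding protein, measured 1.84 and 0.677 RPKM in the libraries labelled Irf8 cKO, against 0.968 and 1.12 RPKM in Ctrl. 1190002N15Rik measured 2.13 and 0.872 RPKM in the libraries labelled Irf8 cKO, against 1.27 and 1.20 RPKM in Ctrl. Like Irf8, both were highest in Irf8 cKO of experiment 1 and lowest in Irf8 cKO of experiment 2. Of 6439 genes compared, 730 lay within a distance of 0.2, so that with 4 libraries a near profile is common. The log2(RPKM + 1) scale understates changes of low genes such as Eif4ebp3 and 1190002N15Rik, so nearness is not an equal fold change.

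The sorted cells carried the markers of their label. Bcl6, Mybl1 and Rgs13 were above 10 RPKM in all 4 libraries. S1pr2, Gcsam and Fas were lower, at 5.57, 4.76 and 3.02 RPKM in Irf8 cKO of experiment 2. All 12 GC B cell markers passed the filter. Their summed RPKM was 365 and 246 in the libraries labelled Irf8 cKO, against 499 and 440 in Ctrl, and Ms4a1, the gene of CD20, passed the test, at 49.0 and 23.4 RPKM in the libraries labelled Irf8 cKO, against 96.4 and 67.6 RPKM in Ctrl (log2 ratio -1.23, limma adjusted p = 0.0356). It did not pass with scaled values (log2 ratio -0.72, adjusted p = 0.397). IRF8 and several other members are also expressed by myeloid and dendritic cells. The summed RPKM of 8 myeloid marker genes was 17.7 and 3.44 in the libraries labelled Irf8 cKO, against 66.2 and 9.05 in Ctrl, carried mostly by the neutrophil genes S100a8 and S100a9 and by Lyz2. S100a8 and S100a9 passed as deposited, with log2 ratios of -1.72 and -1.67 (limma, adjusted p = 8.7e-06 and 2.0e-05), and not when scaled (adjusted p = 0.322 and 0.233). Of all tested genes 1.18% passed as deposited. In the deposited p-values a gene's own spread has no weight. The groups overlapped for S100a8 and S100a9, at 3.54 and 3.64 RPKM in Irf8 cKO of experiment 1, against 1.69 and 2.26 RPKM in Ctrl of experiment 2. Both genes also differed between libraries of 1 group, as S100a8 measured 26.0 RPKM in Ctrl of experiment 1 and 1.69 RPKM in Ctrl of experiment 2. The Ms4a1 call was lost without the experiment as a term. The S100a8 and S100a9 calls held there, and in such fits they were lost without Irf8 cKO of experiment 2 or without Ctrl of experiment 1. The macrophage markers Csf1r, Emr1 and Cd14 reached at most 0.0935 RPKM in any library, and Cd14 was listed at 0 in all. Cd68, of the same list, was higher and passed the filter. It measured 0.649 and 1.13 RPKM in the libraries labelled Irf8 cKO, against 1.15 and 1.31 RPKM in Ctrl. Itgam reached at most 0.706 RPKM. The T cell markers Cd3e, Cd3d and Cd3g reached at most 0.0878 RPKM, and the dendritic cell markers Itgax, Xcr1 and Clec9a at most 0.0549 RPKM. Flt3, also a dendritic cell marker, was higher and passed the filter. Its values were 0.816 and 0.963 RPKM in the libraries labelled Irf8 cKO, against 1.29 and 1.69 RPKM in Ctrl. Summed over its list, dendritic cell marker RPKM was 7.41 and 5.12 in the libraries labelled Irf8 cKO, against 8.71 and 7.74 in Ctrl, most of it Tcf4, which B cells also express. Over the 6 measured T cell markers the sum was at most 0.116 RPKM in any library. The 6 plasma cell markers summed to 45.1 and 27.0 RPKM in the libraries labelled Irf8 cKO, against 56.8 and 38.7 RPKM in Ctrl. Igj, Slamf7 and Xbp1 carried most of these sums. Igj lay between 11.1 and 28.9 RPKM over the libraries, Slamf7 between 11.0 and 18.2, and Xbp1 between 4.47 and 9.23. Sdc1 and Prdm1 were below 0.457 RPKM in every library. The part of neutrophil transcripts in the IRF values was not tested.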

How the data were processed

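The authors deposited 1 table per experiment with the RPKM of 1 Ctrl and 1 Irf8 cKO library for each RefSeq gene, and the series' design text names the Wardrobe platform as their source. Each table also holds, per the file headers, a log2 ratio and an unadjusted p-value of the authors from 1 library against 1 library. Per the submitters' processing notes, the tools were DESeq, Cuffdiff, Cufflinks 2.2 and TopHat2 2.0 and the builds mm10 and mm9, without a role for any of them, so which aligner stands behind the RPKM is unknown here. The deposited coordinates are those of mm10, on which the start of Irf2, Irf3 and other members equals that of RefSeq. RNA was amplified before library construction, per the labels' protocols.

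Genes sharing a symbol (2 entries) were summed. Totals were estimated from single-transcript genes, taking lengths from GENCODE, as the number that made most low values whole reads. Within 0.1 reads, 68.4% to 71.0% came out whole, so reads were not recovered, no count model was run, and read numbers are approximate. log2(RPKM + 1) was fitted with limma 3.58.1 under R 4.3.3 (eBayes with a variance trend, 2-sided), with the experiment as a block, on the 6446 genes that reached an RPKM of 1 in 2 or more libraries. Benjamini-Hochberg adjustment ran over these genes, with 0.05 as the limit. The fit left 1 residual degree of freedom. As deposited the prior degrees of freedom were infinite, so that SE and p come from genes of similar level and a gene's own spread has no weight. After median-of-ratios scaling they were 6.44. The block rests on the numbering of the experiments in the labels and on their separate tables. Deviations of same-numbered libraries from the group means correlated at 0.377 as deposited and 0.331 after scaling.

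The 8 genes and all gene lists were chosen with earlier results of these data known. Named genes are the 8 members, any listed gene that passed, the 3 most abundant tested genes of each list and the 3 nearest to Irf8 in profile. Exceptions are marked, apart from GC B cell and myeloid markers named outside this rule, and genes under the filter named as low. Some genes that this rule names are not reported here. T cell, dendritic, plasma and myeloid markers served as a check only, and of the T cell list 6 of 7 were in the tables. Other values and the plots came from Python 3.11.15 with numpy 2.4.6, pandas 2.3.3, scipy 1.17.1 and matplotlib 3.10.9.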

Additional observations from a re-analysis of the deposited data

How the results depend on the processing

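Under 14 or 15 alternatives per gene, none of the 7 tested members passed, with adjusted p (limma) from 0.111 to 1.00. Of these values, 75 kept the sign of the deposited ratio and 25 did not. With scaling, with or without the experiment as a block, Irf2, Irf4 and Irf9 turned to 0.11, 0.39 and 0.16. Leaving out 1 library in turn, without the block, gave as deposited -0.52 to -0.15 for Irf1, -0.52 to -0.15 for Irf2, -0.64 to -0.25 for Irf3, -0.18 to 0.12 for Irf4, -0.68 to -0.44 for Irf5, -0.31 to 0.46 for Irf8 and -0.25 to -0.090 for Irf9. After scaling the ranges were -0.031 to 0.0031 (0.00083 without Ctrl 1), 0.0021 to 0.22 (0.0024 without Irf8 cKO 2), -0.11 to 0.0097 (1.4e-05 without Ctrl 1), 0.18 to 0.61 (0.47 without Ctrl 1, 0.31 without Ctrl 2), -0.29 to 0.0034, 0.47 to 0.66 and -0.14 to 0.47 (0.14 without Ctrl 1, 0.19 without Ctrl 2) in the same order. The untested Irf7 stayed below 0, from -0.44 to -0.11 without 1 library on both scales and at -0.97 with a pseudocount of 0.1. In these fits the lone library of a group is assumed to vary like the others. The Irf8 to Irf4 difference of 0.11 was -0.42 within experiment 2 alone, as a replicate block, and -0.21 to 0.44 without 1 library.

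Over all genes, 70 were lower and 6 higher as deposited. The counts of lower and higher genes were 3 and 1 with scaling, 19 and 2 with no replicate block, and 4 and 2 with scaling and no replicate block. They were 49 and 5 with a pseudocount of 0.1, 277 and 6 with no variance trend, 17 and 0 at a mean RPKM of 5 or more, and 0 and 0 with no filter, where limma put 1694 and 292 genes at an unadjusted p under 0.05. Without 1 library, in fits that also lack the block, they ran from 0 (without Ctrl 1) to 1450 (without Irf8 cKO 1) lower and from 0 to 9 higher as deposited, and from 1 to 10 lower and 1 to 6 higher with scaling.

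Among the interferon-response genes, 1 was called as deposited, 0 with scaling, with no replicate block, with both, or with no filter, and 2 with no variance trend. Leaving out 1 library, again with no block, changed the counts there and for partners, sensors and receptors. Each was highest as deposited without Irf8 cKO 1, as was the count over all genes. With no variance trend, 1 gene of the sensors (Tlr9) and 1 of the receptors (Ifngr1) passed. Of all 6446 tested genes, 277 passed lower and 6 higher in that fit. The cause of these changes was not tested. Low members are limited by depth, Irf7 most. Psmb8 lost its call with scaling and with no replicate block.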
